A study of Danio rerio with 24 samples.

Results

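In GFP+ cells sorted from zebrafish larvae, 194 of 31087 genes stood at least 3-fold over mock 1 h after neomycin. The same genes stood under 2-fold at 3 h and 5 h. They were chosen by a rule on the mean FPKM (fragments relative to transcript length and library size) of the 3 GFP+ libraries of each group. The ratio, (mean FPKM + 1) / (mock mean FPKM + 1), had to be 3 or more at 1 h and under 2 at both 3 h and 5 h, with a mean of 10 FPKM or more at 1 h. Of 400 genes that met the 1 h conditions, 200 also met the later ones, and 6 of the 200 were left out by their IDs. Because the rule used every GFP+ library, the GFP+ values of these 194 genes are given as a description with no test. The GFP- libraries had no part in the choice, and tests of these genes use them. Whether they share variation between larvae with the GFP+ libraries was not tested.

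All larvae carried the insertion Tg(sqET20), an enhancer trap line that expresses GFP in supporting cells of the neuromasts and in some other cells. They were 5 days old, and they were bathed in 300 uM neomycin or mock treated, then left to recover in medium. Many larvae were pooled for each sort, and living GFP+ and GFP- cells were collected at 1, 3 or 5 h from treated larvae and at 1 h from mock-treated ones. The 8 groups hold 3 libraries each, 24 in all, made from polyadenylated RNA. Mock larvae were sampled at 1 h only. The mock and 1 h groups carry one date (Mar2012) and the 3 h and 5 h groups a later one (Apr2012), so that a difference across these dates cannot be told apart from one of time after treatment. The labels do not say whether libraries of a group came from separate clutches, so p-values measure the spread between these samples, which may be technical.

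Neuromasts are small sensory organs in the skin in which mechanosensory hair cells are surrounded by supporting cells. Neomycin, an aminoglycoside antibiotic, kills the hair cells, and supporting cells then divide or differentiate to replace them. Cells that meet stress, injury or a growth signal switch on immediate early genes from factors already present. Many of these transcripts are short-lived, and some code for inhibitors of the same signals.

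The sorts were checked against marker genes. Of the 10 hair cell markers listed, strc had no match, and the others gave 12 IDs by symbol, paralogs among them. These IDs summed to 2387 to 3260 FPKM in the GFP+ mock libraries and to 105 to 145 FPKM in the GFP- ones. The 12 IDs stood at 2235 to 2474 FPKM in GFP+ cells at 1 h and at 1047 to 1814 FPKM at 3 h. The largest parts were s100t, with GFP+ means of 1394 FPKM in mock and 510 FPKM at 3 h, and pvalb9, with 1066 and 546 FPKM. The other IDs did not move together. From mock to 3 h OTOF (ENSDARG00000020581) went from 211 to 183 FPKM and OTOF (ENSDARG00000030832) from 6.54 to 3.01 FPKM, while ATOH1 rose from 29.3 to 50.7 FPKM. Markers of supporting cells and lateral line summed to 3923 to 5475 FPKM in GFP+ and 191 to 208 FPKM in GFP- mock libraries. In GFP+ cells they were lower without overlap at 1 h, at 1902 to 3569 FPKM, and stood at 1661 to 2067 FPKM at 3 h and 2212 to 3372 FPKM at 5 h; their part in the 1 h levels of the members was not tested. Markers of epidermis were also high in GFP+ cells, at 8822 to 14173 FPKM against 464 to 665 FPKM. RNA was thus measured from mixtures of cells, in which fewer cells of a type and less RNA per cell cannot be told apart. TSPAN1, a marker of the GFP+ cells, was measured in the GFP- libraries of 1 h at no more than 0.172% of its GFP+ level. Other markers high in GFP+ cells stood at larger shares in GFP- cells. At 1 h the GFP- and GFP+ means were 161 and 2074 FPKM for epcam, 245 and 2959 FPKM for krt4 and 53.1 and 965 FPKM for pvalb9. The GFP- mean of epcam in mock was 77.4 FPKM. The part of GFP+ RNA, or of like cells in the GFP- sort, in GFP- levels and rises was not tested. The 8 matched IDs of blood markers reached 2.03%, 1.101% and 0.817% of their GFP- level in GFP+ libraries 1, 2 and 3 of 1 h. For 155 of the 156 genes described next, 2.03% of the GFP- level is under 10% of the GFP+ level at 1 h. Read counts were not used here. Depth was not given, and an estimate of it from the FPKM values, relative to the median library, ran from 0.729 to 1.26.

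Not all of the 194 genes were detected in every library of 1 h. For 156 genes FPKM was above 0 in all 3 GFP+ libraries of 1 h. The other 38 were listed at 0 in 1 or 2 of these libraries, and 27 genes were listed at 0 in every GFP+ library of mock, 3 h and 5 h. Of the 38, 25 have no gene symbol and 13 are small RNA loci (microRNA, snoRNA, 5S rRNA and U5 genes). In the 156 genes the ratio at 1 h ran from 3.00 to 42.4 with a median of 3.83. The median ratio was 1.44 at 3 h and 1.0999 at 5 h, so that a median of 86.9% of the excess over mock at 1 h was gone by 3 h. At 5 h, 131 of the 156 stood lower than at 3 h, and 59 stood below the mock mean. The rule used these libraries, and the same counts over all genes were not made, so nothing is read from either count.

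**Figure D1:**
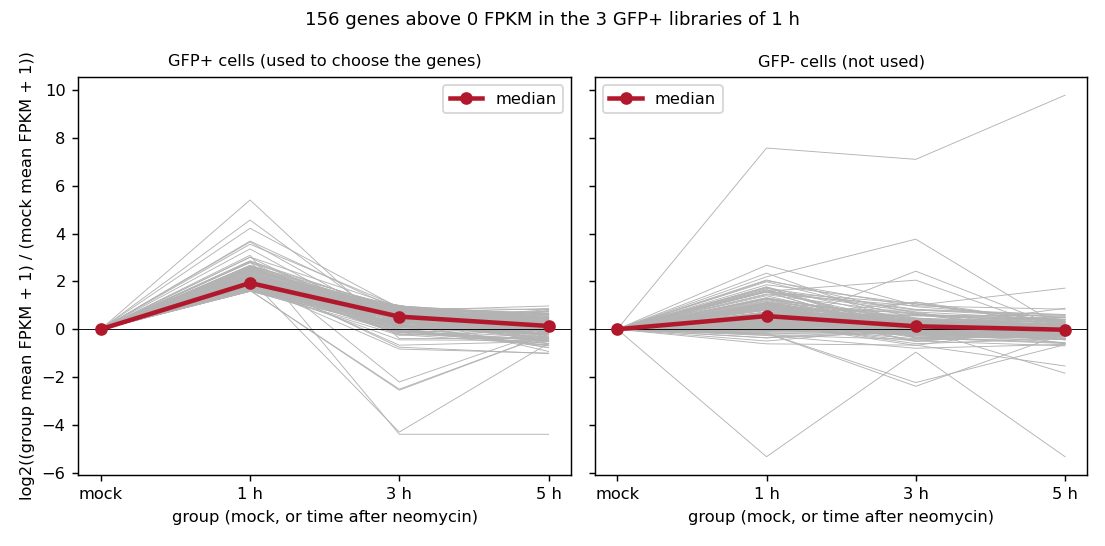
Each grey line is one of the 156 genes, as log2 of (group mean FPKM + 1) over (mock mean FPKM + 1), in GFP+ cells (left) and GFP- cells (right) at mock, 1, 3 and 5 h; the red line is the median. The GFP+ lines peak at 1 h because the genes were selected on that, and the GFP- median, which was not used, also has its highest value at 1 h.

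Libraries of a group did not contribute equally. All 3 libraries of 1 h lay above all 3 of mock for 142 genes, and above all 9 other GFP+ libraries for 136. A complete separation of 1 h from mock in this direction was seen in 16.3% of all 21860 genes tested, and the rule used that contrast, so nothing is read from the count. Among the 156 genes, library 1 of 1 h was the highest in 97, library 2 in 38 and library 3 in 21. Over all genes tested these shares were 34.8%, 24.0% and 41.2%. Library 1 also had the largest blood share given above, and the part of that share in these levels was not tested beyond the values given there. Without library 1 of 1 h, 143 of the 194 genes met the rule, and with group medians in place of means 128 did. The coefficient of variation at 1 h had a median of 22.8% in the 156 genes and 14.4% in all genes with a 1 h mean of 10 FPKM or more.

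The thresholds cut through a continuous range. Just inside the 1 h ratio were xpo1a at 3.00, TSPAN31 and GMDS at 3.01 and tpm4a at 3.02, and just outside were fhdc1 and bik at 2.99, cdcp1a at 2.96 and ITGA5 at 2.95. At 3 h the ratio was 1.98 in tspan36 and 1.96 in ccnl1b, ptpn1 and misp3, while the nearest genes left out were mala.2 at 2.02, C11H1orf50 at 2.03, IRAK3 at 2.06 and PGP at 2.07. At 5 h GADD45G stood at 1.68, FOS at 1.66, RAD54L2 at 1.60 and GMDS at 1.55, and SOX4 was left out at 2.13. By the 1 h mean, cd83 entered at 10.6 FPKM, oaz2b at 10.7 FPKM and TENT5C and NAB1 at 10.9 FPKM, while GPR61 stayed out at 9.59 FPKM and SLC23A2 at 8.90 FPKM.

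The question for the GFP- cells was whether the same genes moved in the rest of the larva. Of the 194 genes, 174 reached 1 FPKM in 3 or more of all libraries and were tested, and 20 did not. Of the 174, 41 rose in GFP- cells at 1 h, or 23.6%, where 1.88% of all genes tested rose and 0.823% fell. None of the 174 fell (0 by limma, with an adjusted p under 0.05). At an unadjusted p under 0.05 by limma, 76 were higher and 0 lower. Percentages of all genes that rose or fell, here and below, are at the adjusted threshold and cannot be set against unadjusted counts. The filter took in 19 of the 174 only with the help of GFP+ libraries, where the rule made them high, and 155 passed through GFP- libraries alone. All of the 41 are among the 155, of which they make up 26.5%. The median log2 change of FPKM + 1 was 0.56 in the 174 and -0.04 in all genes tested. The 41 include FKBP5, the hypoxia-induced higd1a, the uncoupling protein UCP2, the metallothionein MT1X, the cytokine inhibitor SOCS3 and the Polycomb protein cbx7a. The size of the GFP- rise was 2.97% to 219.5% of the GFP+ difference in FPKM, with a median of 33.8%, and in 10 of the 41 the 1 h level was higher in GFP- than in GFP+ cells. Without mock library 2 or 3 or 1 h library 1 of the GFP- cells, the count fell from 41 to 26. The list of retina and lens markers held 6 genes, of which opn1sw1 had no match, and gave 7 IDs. Their sum was also higher without overlap in GFP- cells, at 2309.9 to 2875 FPKM in mock and 3473 to 3941 FPKM at 1 h. Markers of supporting cells and lateral line were lower there, at 165 to 189 FPKM at 1 h, and the sums for hair cells, epidermis, blood, neurons and skeletal muscle overlapped between mock and 1 h. The part of these markers in the rise of the 41 was not tested.

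At 3 h against mock 8 of the 174 were higher in GFP- cells and 0 lower (limma; 21 and 3 at an unadjusted p under 0.05), where 2.31% of all genes were higher and 2.11% lower. The 8 were higd1a, TENT5C, LMNA, hivep3b, UCP2, SOCS2, GMDS and a gene with no symbol (ENSDARG00000038190). The count was 3 without GFP- library 3 of 3 h, and 5 without GFP- mock library 2 or 3 or 3 h library 1. At 5 h limma called 0 higher and 0 lower (8 and 3 at an unadjusted p under 0.05), against 0.48% and 0.563% of all genes. Set directly against 1 h, 41 of the 174 were lower at 3 h and 1 higher, where 3.43% of all genes were lower and 4.61% higher. The median log2 change from 1 h to 3 h was -0.40 in the 174 and 0.02 in all genes. Leaving out a GFP- library of 1 h (1, 2 or 3) or of 3 h (2 or 3) brought the count of lower genes down to between 22 and 26. These comparisons share the mock or the 1 h libraries, and those with 3 h and 5 h span the 2 dates. All of them count the 174, of which 19 passed the filter only with GFP+ libraries and so offer no GFP- test.

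**Figure D2:**
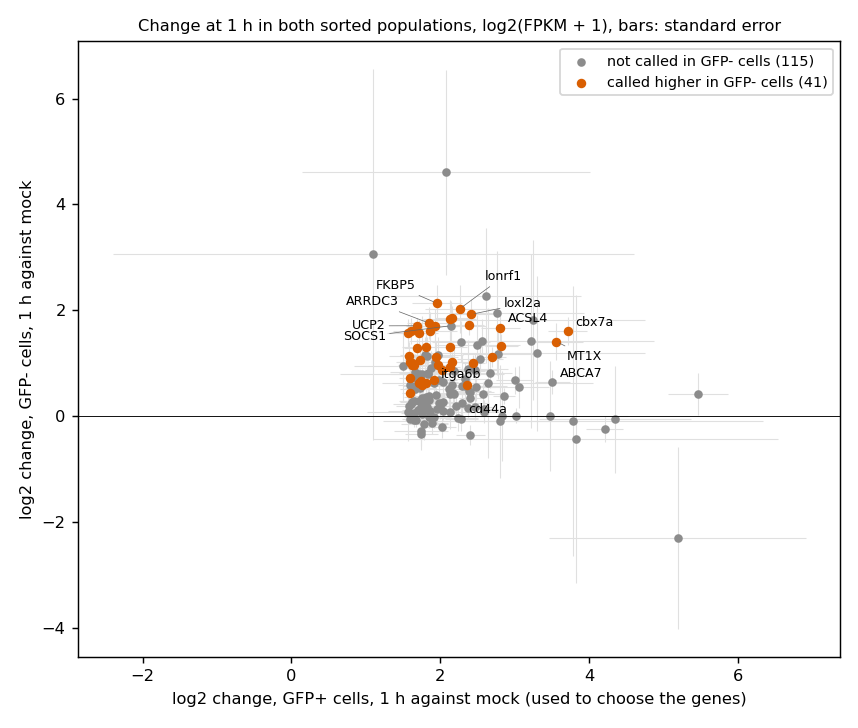
Each point is one of the 156 genes, with the log2 change of FPKM + 1 at 1 h against mock in GFP+ cells (x axis, used to choose the genes) and in GFP- cells (y axis), and bars for the standard error. The 41 genes called higher in GFP- cells are orange and lie above 0, and none of the 115 others was called; 10 of the 156 passed the filter only with GFP+ libraries.

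Transcription and chromatin proteins made up 14 of the genes. At 1 h 5 of the 14 rose in GFP- cells, where 1.88% of all genes tested rose. Roles here and below were assigned with the values known. Named although outside the naming rule are crema, ETS1, hivep3b, SOCS2, NUMB, XPO6, MIDN, SLC16A9, OSBPL3, SPTSSA, PDE10A, F2RL1, OXER1, epha2a, tspan34b, CNN2 and LMNA. Any calls of these genes were not checked gene by gene with libraries left out. Symbols in capitals are mammalian ortholog names, and log2 changes are of FPKM + 1 in GFP- cells, ± SE, with limma's adjusted p. The largest GFP+ ratio among the 14 was that of cbx7a (ENSDARG00000038025), a chromobox protein of the Polycomb complexes that bind methylated histone H3. Its GFP+ level was 38.6, 24.7 and 23.1 FPKM in the 3 mock libraries, 375, 455 and 318 FPKM at 1 h, 73.8, 33.7 and 45.6 FPKM at 3 h and 19.3, 18.7 and 22.6 FPKM at 5 h, a ratio of 12.89 at 1 h. All 1 h libraries stood more than 4-fold above every other GFP+ library, and the 5 h libraries lay below the mock ones. Its GFP- level went from 21.7, 15.4 and 11.6 FPKM in mock to 61.6, 42.2 and 48.1 FPKM at 1 h with no overlap (log2 change 1.61 ± 0.27, adjusted p = 0.00227).

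The linker histone histh1l1 (ENSDARG00000035519) was more abundant outside the GFP+ cells. Its levels were 259, 121 and 214 FPKM in GFP+ mock and 1148, 589 and 482 FPKM at 1 h, whereas GFP- cells had 753, 445 and 580.3 FPKM in mock and 2081, 1528 and 1735 FPKM at 1 h. The groups did not overlap in either population, and in GFP- cells it rose by a log2 change of 1.61 ± 0.36, adjusted p = 0.0223, then fell at 3 h (-2.01 ± 0.36, adjusted p = 0.00285, against 1 h). In GFP+ cells it was under the mock mean at 3 h and 5 h, at 111 ± 64.7 and 98.7 ± 12.8 FPKM (mean ± SD, n = 3). Leaving out GFP- mock library 2 or 3, or GFP- library 1 or 3 of 1 h, ended the 1 h call in GFP- cells.

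Immediate early genes were uneven between libraries. FOS (ENSDARG00000031683), the AP-1 subunit listed as fosab in RefSeq, measured 5.91, 15.8 and 10.4 FPKM in GFP+ mock, 106, 63.0 and 33.5 FPKM at 1 h, 26.0, 10.7 and 17.9 FPKM at 3 h and 35.5, 13.7 and 5.96 FPKM at 5 h. One 5 h library lay above one 1 h library. CEBPB (ENSDARG00000042725), a bZIP factor of inflammatory gene expression, measured 22.2, 16.1 and 16.8 FPKM in mock and 201, 54.0 and 58.5 FPKM at 1 h. Library 1 was more than 3-fold above the others, and the coefficient of variation was 80.1%. ier2b (ENSDARG00000086881), an immediate early gene, went from 16.04, 28.8 and 24.4 to 131, 78.1 and 59.2 FPKM. In GFP- cells FOS, CEBPB and ier2b were not called at 1 h, with log2 changes of 1.34 ± 0.57, adjusted p = 0.238 for FOS, 0.85 ± 0.42, adjusted p = 0.327 for CEBPB and 0.91 ± 0.32, adjusted p = 0.149 for ier2b.

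Steadier members of the same class included mbd2 (ENSDARG00000075952), which binds methylated DNA, at 15.5, 11.2 and 12.01 FPKM in GFP+ mock and 77.4, 79.9 and 70.4 FPKM at 1 h, and not called in GFP- cells (0.55 ± 0.26, adjusted p = 0.309). SBNO2 (ENSDARG00000016188), a co-regulator that acts downstream of interleukin 10 in mammalian macrophages, went from 10.1, 6.16 and 7.11 to 60.9, 56.2 and 48.2 FPKM. It rose in GFP- cells by a log2 change of 1.12 ± 0.20, adjusted p = 0.00397. The zinc finger factor HIVEP2 also rose there (0.93 ± 0.14, adjusted p = 8.37e-04), as did crema, a cAMP-responsive bZIP factor, from 29.3, 27.9 and 18.4 to 97.5, 68.3 and 69.6 FPKM (1.61 ± 0.24, adjusted p = 0.00120). NAB1, a co-repressor of EGR factors, and ETS1 were not called (0.27 ± 0.19, adjusted p = 0.518 and -0.02 ± 0.21, adjusted p = 0.981). The related factor hivep3b was the one member higher at 3 h than at 1 h in GFP- cells, at 12.6, 10.3 and 13.8 FPKM at 1 h and 17.2, 25.4 and 35.8 FPKM at 3 h (0.99 ± 0.23, adjusted p = 0.0117).

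**Figure D3:**
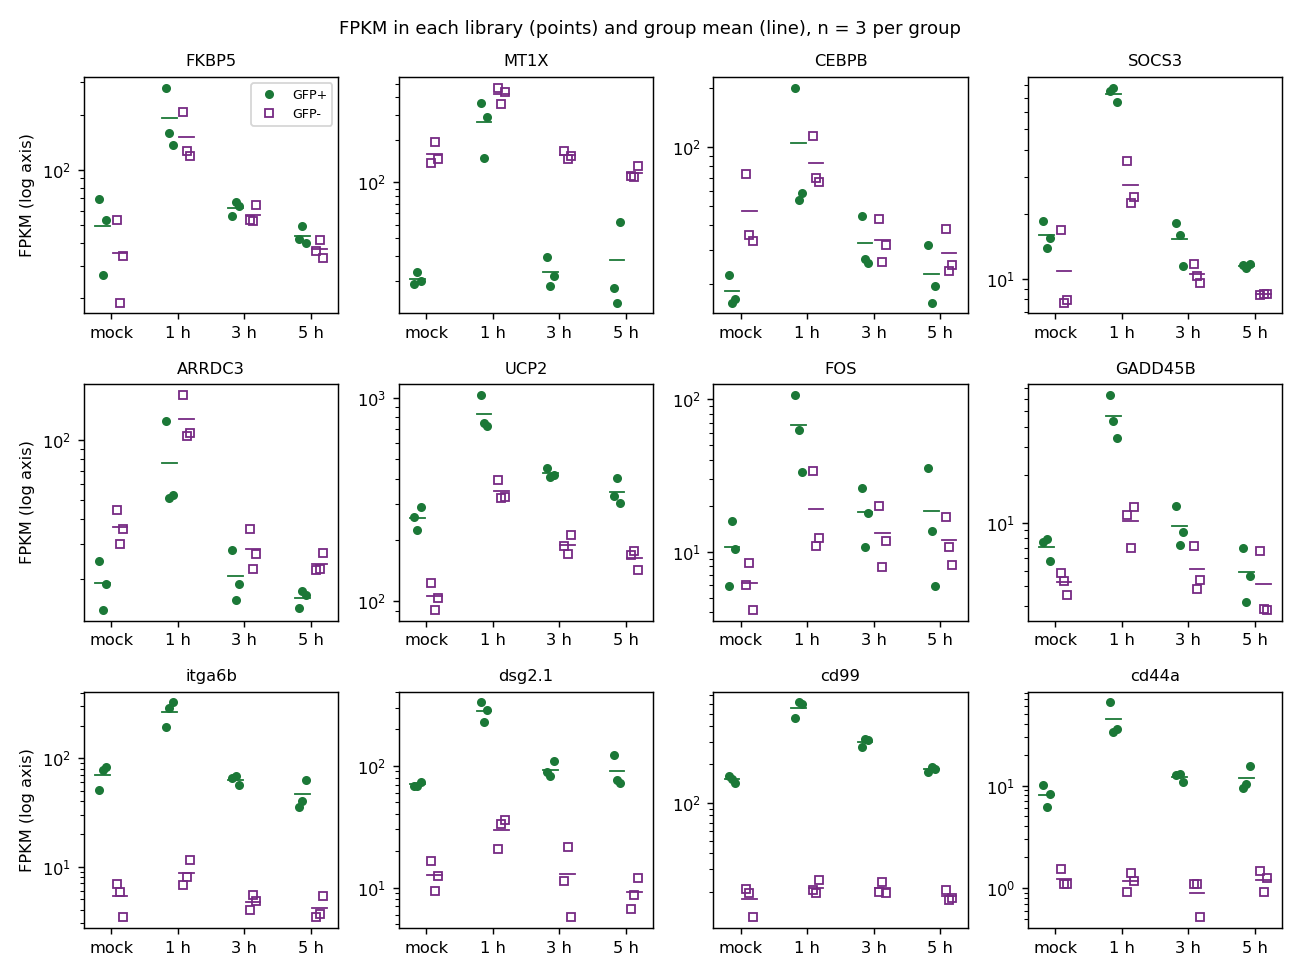
FPKM of 12 members on log axes, in each library of GFP+ cells (filled green circles) and GFP- cells (open purple squares) at mock, 1, 3 and 5 h, with a line for the mean of 3. FKBP5, ARRDC3 and UCP2 are highest at 1 h in both populations, whereas cd99 and cd44a are highest at 1 h in GFP+ cells and overlap between mock and 1 h in GFP- cells; CEBPB and ARRDC3 have one GFP+ library of 1 h far above the other two.

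Genes of stress, growth arrest and cytokine signalling numbered 13. Of these, 3 rose in GFP- cells at 1 h, where 1.88% of all genes tested rose. The suppressors of cytokine signalling, which shut off Jak/Stat receptors in a feedback loop, gave 3 members. SOCS3 (ENSDARG00000026611), socs3a in RefSeq, stood at 18.6, 13.9 and 15.5 FPKM in GFP+ mock, 75.0, 77.8 and 66.9 FPKM at 1 h, 18.2, 16.01 and 11.5 FPKM at 3 h and 11.6, 11.2 and 11.7 FPKM at 5 h. Its 1 h libraries lay close together and far above the rest, and the 5 h libraries lay below all mock ones. Among GFP- libraries it rose from 16.97, 7.73 and 7.93 to 35.5, 22.5 and 24.0 FPKM (1.31 ± 0.22, adjusted p = 0.00279) and fell at 3 h (-1.28 ± 0.22, adjusted p = 0.00218, against 1 h).

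SOCS1 (ENSDARG00000038095), socs1a in RefSeq, measured 18.8, 4.202 and 3.45 FPKM in GFP+ mock and 54.6, 26.2 and 25.3 FPKM at 1 h. Mock library 1 alone was near the 1 h range. Its GFP- levels, 13.9, 5.72 and 4.12 FPKM in mock and 26.4, 26.5 and 22.7 FPKM at 1 h, did not overlap, but the change missed the threshold (1.71 ± 0.47, adjusted p = 0.0578). SOCS2 reached its GFP+ levels of 16.8, 43.6 and 44.0 FPKM at 1 h from 9.85, 8.10 and 13.1 FPKM. It rose in GFP- cells to an overlapping range, 34.7, 49.3 and 38.1 FPKM from 15.8, 11.6 and 11.9 FPKM (1.56 ± 0.28, adjusted p = 0.00487), and was still higher than mock there at 3 h (1.07 ± 0.28, adjusted p = 0.0372).

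A pair of growth arrest and DNA damage inducible genes were members. GADD45G (ENSDARG00000019417), gadd45ga in RefSeq, went from 19.1, 11.01 and 12.6 to 103, 97.9 and 68.9 FPKM in GFP+ cells, then 21.9, 21.5 and 19.6 FPKM at 3 h and 22.9, 19.7 and 31.5 FPKM at 5 h. In mock larvae its GFP+ level was below the GFP- one, at 53.7, 62.4 and 56.8 FPKM. At 1 h after neomycin all GFP+ libraries were above the GFP- libraries at 61.8, 66.1 and 62.0 FPKM. The GFP- levels were not called different (0.13 ± 0.18, adjusted p = 0.778). GADD45B (ENSDARG00000013576), gadd45ba in RefSeq, went from 7.63, 7.91 and 5.77 to 63.3, 43.5 and 33.9 FPKM. The GFP- libraries measured 4.88, 4.33 and 3.54 FPKM in mock and 11.2, 7.01 and 12.7 FPKM at 1 h without overlap, and the change missed the threshold (1.08 ± 0.31, adjusted p = 0.0695).

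Among receptors and chemokines, the interferon gamma receptor subunit ifngr1 (ENSDARG00000074771) went from 7.71, 5.10 and 5.80 to 27.1, 23.4 and 30.4 FPKM in GFP+ cells. It rose in GFP- cells from 3.91, 1.44 and 1.71 to 5.15, 5.596 and 4.94 FPKM (0.96 ± 0.20, adjusted p = 0.0143). That call was lost in a fit of the 12 GFP- libraries only and without GFP- mock library 2 or 3 or GFP- 1 h library 1 or 2. The chemokine cxcl18b (ENSDARG00000075045) measured 13.3, 6.68 and 6.22 FPKM in GFP+ mock, 28.7, 44.7 and 30.9 FPKM at 1 h and 2.09, 2.26 and 8.01 FPKM at 5 h, with 2 of 3 libraries of 5 h below all mock libraries. Its GFP- change was not called (1.01 ± 0.52, adjusted p = 0.356). The kinase PRKCD, the dendritic cell marker cd83, the tyrosine phosphatase ptpn1 and the Notch inhibitor NUMB had GFP+ ratios at 1 h of 4.45, 4.02, 3.52 and 3.58. None of the 4 was called in GFP- cells, with adjusted p of 0.124, 0.765, 0.208 and 0.809 by limma.

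Proteins of folding, turnover and nuclear export numbered 10. At 1 h 6 of them rose in GFP- cells, where 1.88% of all genes tested rose. FKBP5 (ENSDARG00000028396) codes for an immunophilin that binds HSP90 in steroid receptor complexes and is a classical glucocorticoid target in mammals. Its levels were 69.1, 26.7 and 53.5 FPKM in GFP+ mock, 279, 159 and 137 FPKM at 1 h, 56.1, 66.8 and 64.0 FPKM at 3 h and 42.2, 49.2 and 40.0 FPKM at 5 h. In GFP- cells they were 53.2, 19.0 and 34.0 FPKM in mock, 207, 127 and 119 FPKM at 1 h, 53.5, 52.5 and 64.2 FPKM at 3 h and 36.2, 41.6 and 33.2 FPKM at 5 h. The 1 h libraries were the highest in both populations, and library 1 was highest and library 2 lowest in both mock groups. The GFP- rise was the largest log2 change among the members called higher at 1 h (2.13 ± 0.34, adjusted p = 0.00170).

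ARRDC3 (ENSDARG00000036028), an alpha-arrestin that links membrane receptors to ubiquitin ligases, went from 24.5, 13.96 and 18.8 to 125, 51.0 and 53.1 FPKM in GFP+ and from 44.2, 29.8 and 35.6 to 168, 104 and 109 FPKM in GFP- cells (1.76 ± 0.30, adjusted p = 0.00294). Library 1 was the highest of 1 h in both. It then fell in GFP- cells at 3 h to 35.6, 22.5 and 26.7 FPKM (-2.12 ± 0.30, adjusted p = 4.97e-04, against 1 h). The RING finger protein lonrf1 (ENSDARG00000078567) went from 3.89, 3.24 and 7.81 to 25.5, 29.0 and 24.1 FPKM in GFP+ cells. In GFP- cells it rose from 8.23, 6.32 and 6.59 to 33.3, 35.5 and 26.6 FPKM, a range that overlaps the GFP+ one (2.02 ± 0.46, adjusted p = 0.0223). Its later libraries were spread, at 13.8, 8.21 and 21.4 FPKM in GFP- cells and 9.96, 3.27 and 17.4 FPKM in GFP+ cells at 3 h, and the GFP- call at 1 h was lost without mock library 2 or 3 or 1 h library 1 or 2.

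Both exportins among the members rose in GFP- cells. XPO6, the exporter of actin and profilin, rose by a log2 change of 1.00 ± 0.16, adjusted p = 0.00206, and xpo1a, the general exporter of proteins with a leucine-rich signal, by 0.72 ± 0.15, adjusted p = 0.0110, a call lost without GFP- mock library 2 or 1 h library 1. The zinc finger protein zfand5a, which activates the proteasome in mammals, had 72.3, 55.4 and 101 FPKM in GFP+ mock, 339.8, 226 and 234 FPKM at 1 h and 59.4, 54.3 and 53.5 FPKM at 3 h, and the 3 h range overlaps mock. Its small GFP- rise (0.62 ± 0.16, adjusted p = 0.0439) was lost in 19 fits that each left out 1 library, any GFP- library among them. Not called in GFP- cells were the muscle RING ligase trim63a (ENSDARG00000028027), with GFP+ levels of 0.821, 0.968 and 0.331 FPKM in mock and 32.6, 11.4 and 5.55 FPKM at 1 h, the autophagy protein map1lc3cl and the ER co-chaperone DNAJB9 (adjusted p of 0.546, 0.157 and 0.998 by limma). MIDN, which brings short-lived nuclear proteins to the proteasome, was not called either (0.17 ± 0.11, adjusted p = 0.503).

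Metal, redox and metabolic genes numbered 19, and 18 of them passed the filter through GFP- libraries. Of the 18, 12 rose in GFP- cells at 1 h, where 1.88% of all genes tested rose. The metallothionein MT1X (ENSDARG00000041623), which binds zinc and copper, was low in GFP+ mock at 18.8, 22.9 and 19.9 FPKM and reached 368, 148 and 292 FPKM at 1 h, with 29.2, 18.2 and 21.4 FPKM at 3 h. GFP- mock libraries were already at 138, 194 and 145 FPKM and rose to 468, 357 and 441 FPKM (1.41 ± 0.35, adjusted p = 0.0382). The 1 h libraries lay above mock in both populations, and at 5 h one GFP+ library stood apart at 52.4 FPKM from the others at 17.8 and 13.9 FPKM. The GFP- call was lost when any 1 of the GFP- mock or 1 h libraries was left out.

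Among the 12 was UCP2 (ENSDARG00000043154), an uncoupling protein of the mitochondrial inner membrane, which measured 258, 224 and 289.8 FPKM in GFP+ mock and 1028, 751 and 723 FPKM at 1 h, while GFP- cells rose from 122, 90.7 and 104 to 393, 322 and 324 FPKM (1.71 ± 0.15, adjusted p = 9.71e-06). At 3 h GFP- cells still had 186, 169.9 and 211 FPKM, above all mock libraries (0.84 ± 0.15, adjusted p = 0.00508). higd1a (ENSDARG00000022303), a hypoxia-induced protein of the respiratory chain, went from 27.3, 33.6 and 25.9 to 129, 154 and 114 FPKM in GFP+ cells. In GFP- cells it rose from 14.4, 14.8 and 12.7 to 50.6, 57.5 and 52.4 FPKM (1.86 ± 0.22, adjusted p = 1.12e-04) and was still higher than mock at 3 h (1.06 ± 0.22, adjusted p = 0.0127). SLC25A33, a carrier of pyrimidine nucleotides into mitochondria, rose by a log2 change of 1.00 ± 0.15, adjusted p = 0.00130.

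Lipid and carbohydrate enzymes followed. ACSL4 (ENSDARG00000010752), acsl4a in RefSeq, activates long-chain fatty acids and went from 9.69, 6.29 and 7.04 to 89.2, 46.8 and 48.8 FPKM in GFP+ cells. In GFP- cells it rose from 7.73, 4.71 and 4.14 to 25.8, 15.9 and 17.2 FPKM and was back at 6.69, 4.68 and 5.28 FPKM at 3 h (1.67 ± 0.26, adjusted p = 0.00157 at 1 h; -1.64 ± 0.26, adjusted p = 0.00141 at 3 h against 1 h). PCK1 (ENSDARG00000013522), the rate-limiting enzyme of gluconeogenesis, was higher in GFP- than in GFP+ cells, at 25.0, 19.96 and 38.3 against 17.7, 9.58 and 15.7 FPKM at 1 h. Its mock libraries spread widely in GFP- cells, at 15.6, 3.35 and 5.51 FPKM, yet lay below all 1 h libraries (1.83 ± 0.36, adjusted p = 0.00926), and the call was lost without GFP- library 3 of 1 h. The antizyme oaz2b, which inhibits the polyamine enzyme ornithine decarboxylase, rose by a log2 change of 1.56 ± 0.26, adjusted p = 0.00209. The monocarboxylate transporter SLC16A9, the oxysterol-binding protein OSBPL3, the sphingolipid enzyme subunit SPTSSA and the phosphodiesterase PDE10A rose by 1.71, 1.02, 0.67 and 0.96 (adjusted p of 0.00510, 0.00817, 0.0171 and 0.0197 by limma).

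Not all metabolic genes were called in GFP- cells. ABCA7 (ENSDARG00000074221), a lipid transporter, had GFP+ levels of 0.515, 0.483 and 0.951 FPKM in mock and 11.1, 23.5 and 20.7 FPKM at 1 h, a ratio of 11.77, and a GFP- change of 0.65 ± 0.23, adjusted p = 0.156. gyg2 (ENSDARG00000033380), glycogenin, the primer of glycogen synthesis, had 0.617, 0.837 and 0.921 FPKM in mock and 13.8, 13.2 and 13.5 FPKM at 1 h in GFP+ cells. Its 1 h libraries were the most alike of all members, with a coefficient of variation of 2.16%, and in GFP- cells no library reached 0.4 FPKM. It passed the filter only through its GFP+ libraries, so its GFP- cells offer no test. The NADPH oxidase organizer noxo1a went from 3.92, 3.02 and 2.58 to 34.8, 22.0 and 17.3 FPKM in GFP+ cells and was not called in GFP- cells (0.41 ± 0.24, adjusted p = 0.426).

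Cell surface, adhesion and receptor genes were the largest named class, with 21 members, of which 19 passed the filter through GFP- libraries. Of the 19, 4 rose in GFP- cells at 1 h, where 1.88% of all genes tested rose. itga6b (ENSDARG00000069946), an integrin subunit that binds laminin in the basement membrane, measured 50.9, 77.7 and 82.9 FPKM in GFP+ mock, 193, 288 and 328 FPKM at 1 h, 65.0, 68.6 and 57.1 FPKM at 3 h and 35.2, 40.6 and 63.5 FPKM at 5 h. Every 1 h library was above every other GFP+ library. GFP- libraries held 6.93, 5.87 and 3.42 FPKM in mock and 6.78, 7.99 and 11.4 FPKM at 1 h, which overlapped and were not called (0.62 ± 0.26, adjusted p = 0.244).

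cd99 (ENSDARG00000051975), an adhesion protein, measured 161, 154 and 144 FPKM in GFP+ mock, 466, 614 and 595 FPKM at 1 h, 275, 314 and 309 FPKM at 3 h and 175.8, 191 and 184 FPKM at 5 h. Its ratio at 3 h, 1.95, was above the median of 1.44. Its GFP- levels, 21.1, 19.5 and 12.7 FPKM in mock and 20.7, 19.5 and 24.6 FPKM at 1 h, overlapped (0.29 ± 0.15, adjusted p = 0.333). The desmosomal cadherin dsg2.1 (ENSDARG00000076945) went from 68.4, 68.7 and 73.7 to 332, 227 and 285 FPKM in GFP+ cells and from 16.6, 9.30 and 12.4 to 20.5, 33.3 and 36.0 FPKM in GFP- cells. The GFP- libraries did not overlap, but the change missed the threshold (1.16 ± 0.34, adjusted p = 0.0720). The hyaluronan receptor cd44a (ENSDARG00000087863) went from 10.1, 6.15 and 8.22 to 65.0, 33.3 and 36.1 FPKM in GFP+ cells, and no GFP- library of mock or 1 h was above 1.6 FPKM (-0.05 ± 0.23, adjusted p = 0.953).

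The 4 that rose in GFP- cells were led by loxl2a (ENSDARG00000044010), a lysyl oxidase relative that modifies extracellular matrix. It went from 1.82, 4.83 and 6.33 to 21.1, 24.9 and 30.8 FPKM in GFP+ and from 0.900, 0.981 and 0.721 to 7.19, 3.58 and 8.41 FPKM in GFP- cells (1.92 ± 0.29, adjusted p = 0.00123). The others were the semaphorin SEMA4B (0.87 ± 0.13, adjusted p = 0.00131), the protease-activated receptor F2RL1 (1.13 ± 0.26, adjusted p = 0.0217) and the oxoeicosanoid receptor OXER1 (1.11 ± 0.29, adjusted p = 0.0484). The calls of F2RL1 and OXER1 were not checked with libraries left out. The adrenergic receptor ADRA2A (ENSDARG00000040841) had the largest GFP+ ratio of the class, with 1.96, 1.28 and 2.23 FPKM in mock and 21.4, 10.6 and 12.97 FPKM at 1 h. It was not called in GFP- cells (0.17 ± 0.24, adjusted p = 0.803). The tetraspanins tspan36, tspan34b and TSPAN31 had GFP+ ratios of 4.54, 3.14 and 3.01 and were not called at 1 h in GFP- cells (adjusted p of 0.343, 0.552 and 0.896 by limma). The ephrin receptor epha2a and the chloride channel relative CLIC2 were not called either (adjusted p of 0.200 and 0.770 by limma).

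Cytoskeletal and related genes numbered 15. Of these, 1 rose in GFP- cells at 1 h, where 1.88% of all genes tested rose. The gene was the actin-binding calponin CNN2 (0.59 ± 0.15, adjusted p = 0.0441 by limma). That call is near the threshold and was not checked with libraries left out. The gene rapgef3 (ENSDARG00000079291), a cAMP-activated exchange factor for Rap, went from 1.48, 2.44 and 2.46 to 13.8, 15.9 and 16.5 FPKM in GFP+ cells. In GFP- cells it measured 5.64, 6.26 and 4.36 FPKM in mock and 3.71, 4.16 and 4.11 FPKM at 1 h, lower in every library but not called (-0.35 ± 0.19, adjusted p = 0.384). The microtubule and actin protein misp3, the gelsolin relative FLII, the tropomyosin tpm4a and the nuclear lamin LMNA had GFP+ ratios at 1 h of 5.29, 3.39, 3.02 and 3.29. Their GFP- changes at 1 h were not called, with adjusted p of 0.255, 0.792, 0.0515 and 0.0609 by limma. LMNA was higher than mock at 3 h in GFP- cells, at 7.96, 8.76 and 6.79 FPKM from 5.17, 4.08 and 2.95 FPKM (0.82 ± 0.22, adjusted p = 0.0405).

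**Figure D4:**
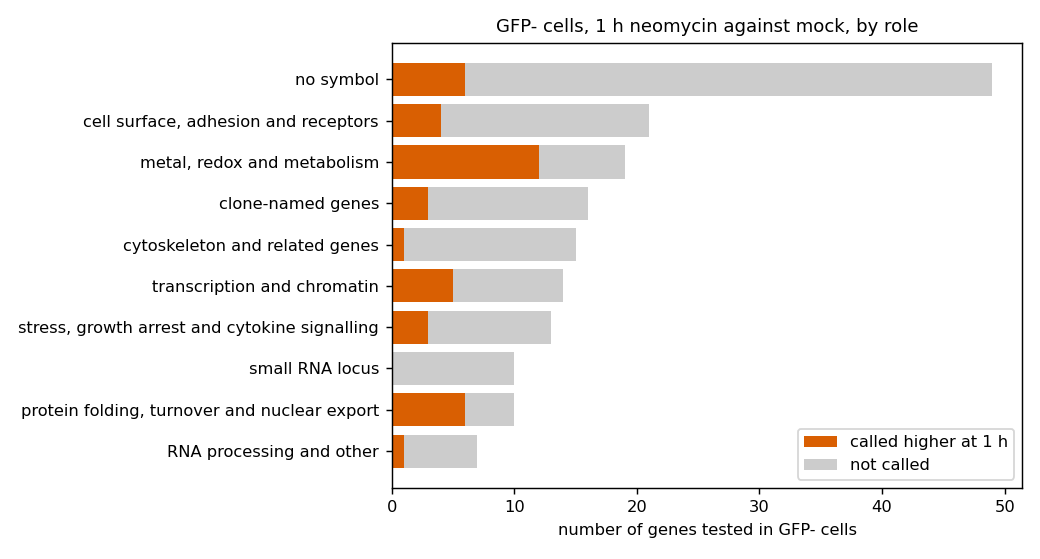
Bars count the members of each role that were tested in GFP- cells, with those called higher at 1 h by limma in orange and those not called in grey. Orange covers 12 of 19 metal, redox and metabolic genes and 6 of 10 folding, turnover and export genes. It covers 1 of 15 cytoskeletal and related genes, and 1.88% of all genes tested were called higher. Grey includes genes that passed the filter only with GFP+ libraries and so offer no test. These were 1 metal, redox and metabolic gene, 2 surface genes, 2 clone-named genes, 3 of the 10 small RNA loci and 11 genes with no symbol. Differences between roles were not tested.

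RNA processing and other named genes numbered 7, and 1 rose in GFP- cells at 1 h, where 1.88% of all genes tested rose. The splicing cyclins CCNL1 and ccnl1b and the kinase RIOK3, which acts in ribosome maturation, had GFP+ ratios of 3.42, 3.12 and 3.95 and were not called at 1 h in GFP- cells (adjusted p of 0.120, 0.815 and 0.290 by limma). FAM107B was the one called, from 180.2, 162 and 143 to 300.0, 285 and 207 FPKM (0.69 ± 0.15, adjusted p = 0.0191), and the call was lost in a fit of the 12 GFP- libraries only and without GFP- mock library 2 or 3 or GFP- 1 h library 1 or 2. The poly(A) polymerase TENT5C was not called at 1 h (0.54 ± 0.21, adjusted p = 0.198) and was higher at 3 h (1.13 ± 0.21, adjusted p = 0.00655). ANKRD22 and MACC1 went from 16.05 to 89.1 FPKM and from 6.68 to 28.3 FPKM in GFP+ means, with adjusted p of 0.476 and 0.847 in GFP- cells.

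Clone names are carried by 16 members, and those described here were picked out after their values were seen. The largest ratio of the 156 genes, 42.42, was that of zgc:174917 (ENSDARG00000073820), at 6.64, 2.60 and 1.62 FPKM in GFP+ mock, 299, 155 and 131 FPKM at 1 h and 2.30, 3.17 and 2.098 FPKM at 3 h. The highest mean of all members was that of si:ch211-153b23.5 (ENSDARG00000058206), at 262, 192 and 234 FPKM in mock and 2166, 1925 and 1469 FPKM at 1 h. In RefSeq (assembly GRCz12tu) these genes are next to each other, and si:ch211-153b23.4, with a ratio of 7.04, is the next gene on. Of the 3, si:ch211-153b23.4 rose in GFP- cells, from 0.653, 0.172 and 0.307 to 2.63, 2.48 and 2.14 FPKM (1.32 ± 0.22, adjusted p = 0.00255), and the others were not called (adjusted p of 0.675 and 0.173 by limma). Also adjacent are the membrane-spanning genes ms4a17a.4, ms4a17a.12 and si:ch73-56d11.5, with ratios of 3.38, 3.67 and 4.77, and the pair gyg2 and cd99. One gene lies between ptpn1 and CEBPB. RefSeq placed 109 of the 133 members with a symbol, and its positions are not those of danRer7, the build the submitters named.

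Small RNA loci numbered 18 and genes with no symbol 61. Libraries were made from polyadenylated RNA, and the values of these short loci are large and scattered. For example, mir141 (ENSDARG00000080489) was listed at 204, 0 and 0 FPKM in the GFP+ libraries of 1 h and at 0 in all other GFP+ libraries, and mir130a-2 (ENSDARG00000082938) at 0, 128 and 0 FPKM. MIRLET7F1 (ENSDARG00000082942) was above 0 in all 3, at 10.9, 15.5 and 41.8 FPKM. In GFP- cells 7 of the loci passed the filter by their own libraries, 3 more passed only with GFP+ libraries, and nothing is read from their GFP- values. Of the genes with no symbol, 49 were tested, 38 of them through GFP- libraries and 11 only with GFP+ libraries. Of the 38, 6 rose in GFP- cells at 1 h, where 1.88% of all genes tested rose. ENSDARG00000074020, chosen after its values were seen, measured 34.8, 25.4 and 35.9 FPKM in GFP+ mock and 273, 157 and 173 FPKM at 1 h, and in GFP- cells 30.5, 33.7 and 38.5 FPKM in mock and 35.2, 34.7 and 37.8 FPKM at 1 h, where it was not called (0.07 ± 0.20, adjusted p = 0.916).

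In mock larvae, sampled at 1 h, the members were spread over both populations. The GFP+ level was 2-fold or more above the GFP- level in 51 of the 156 genes, within 2-fold in 79 and at 0.5 or less of it in 26 (ratios of mean FPKM + 1). A ratio of 2 or more was found in 13.1% of all genes tested. The surface genes itga6b and cd99 had mock ratios of 11.2 and 8.23, and MT1X and GADD45G of 0.135 and 0.260. These mock levels entered the rule and are a description.

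Other genes of the same pathways were counted from 6 lists. The lists were chosen with earlier results of these data known, so their counts, here and in GFP- cells, are a description. In GFP+ cells at 1 h, 13.9% of all genes tested rose and 19.1% fell. The members, which the rule took from this same contrast, were removed from the lists before counting. Of the other genes, 32 of 53 immediate early and AP-1 genes rose and 0 fell, among them FOSL1 (log2 change 5.77 ± 0.60, adjusted p = 6.63e-07) and ATF3 (4.67 ± 0.50, adjusted p = 1.01e-06). Ribosome biogenesis gave 46 of 53 up and 0 down, amino acid response and transport 19 of 32 up and 1 down, and heat shock and oxidative stress 18 of 35 up and 3 down. Cytokine, chemokine and NF-kB genes gave 12 of 27 up and 1 down, and MAP kinase and growth factor feedback 10 of 26 up and 2 down. The median log2 changes were 0.75, 0.95, 0.42, 0.47, 0.36 and 0.19 in this order, against -0.07 in all genes. The members on these lists were GADD45B, GADD45G, CEBPB and ier2b (immediate early) and SOCS1, SOCS3 and cxcl18b (cytokine).

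In GFP- cells at 1 h the same lists were counted against 1.88% of all genes higher and 0.823% lower. Of the immediate early genes 5 of 53 rose, with KLF9, a glucocorticoid-responsive factor, going from a mean of 16.7 to 57.5 FPKM (1.85 ± 0.39, adjusted p = 0.0144) and FOSL2 from 6.16 to 18.2 FPKM (1.43 ± 0.24, adjusted p = 0.00286). Of the cytokine genes 1 of 27 rose, the Stat5 target CISH, from 17.5 to 62.8 FPKM (1.78 ± 0.28, adjusted p = 0.00131). Of the amino acid genes 5 of 32 rose, among them ODC1, the polyamine enzyme, from 54.6 to 328 FPKM (2.51 ± 0.42, adjusted p = 0.0028). MAP kinase feedback gave 5 of 26 up and 1 down, heat shock 1 of 35 up, and ribosome biogenesis 0 of 53 in either direction by limma (5 higher and 0 lower at an unadjusted p under 0.05). The median log2 changes were 0.36 for immediate early, 0.22 for amino acid, 0.22 for MAP kinase, 0.11 for cytokine, 0.11 for heat shock and 0.08 for ribosome biogenesis genes, against -0.04 in all genes.

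The genes outside the set whose course was most like the mean standardised profile of the members were sought over the 12 GFP+ libraries. They were PTP4A1, a tyrosine phosphatase (Pearson's r 0.989), SPTLC2, a subunit of serine palmitoyltransferase (0.988), the forkhead factor FOXO1 (0.988), ALAS1, the first enzyme of heme synthesis (0.987), and PPTC7, a mitochondrial phosphatase (0.986). Their ratios at 1 h were 2.77, 2.95, 3.11, 2.83 and 2.93. FOXO1 passed the ratio but had a 1 h mean of 4.61 FPKM, and the other 4 fell short of 3. The 12 libraries share group means, dates and scaling, so r is given as a description.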

How the data were processed

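The authors deposited a table of FPKM values per gene for 24 libraries. Per the submitters' processing notes, CASAVA 1.8.2, TopHat 1.4.1 and Cufflinks 1.3 were used with danRer7. Counts and depth were not given. Of 31199 rows, 112 repeats were dropped. The members and lists were chosen with earlier results of these data known. Genes with 1 FPKM or more in at least 3 libraries (21860) were fitted as log2(FPKM + 1) over all 8 groups with limma 3.58.1 (R 4.3.3, eBayes with trend), with Benjamini-Hochberg adjustment over all of them and a threshold of 0.05. The pseudocount of 1 understates changes of low genes. Python 3.11.15, pandas 2.3.3, numpy 2.4.6 and matplotlib 3.10.9 were used. Named genes were those with the largest 1 h ratios, the highest 1 h means, the largest and smallest GFP- changes, those next to a threshold or on a list, and up to 6 a role by ratio; exceptions are named as such. The script was tested on simulated data. Alternatives were the pseudocount, filters, scaling, GFP- libraries only, a replicate block and leaving out each library. Promoter sequence was not analysed here. Some members are not reported here by name.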

Additional observations from a re-analysis of the deposited data

Results flagged for a closer look

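For rapgef3 and bin2b, all 3 GFP- libraries of 1 h lay below all 3 of mock, while all 3 GFP+ libraries of 1 h lay above mock, and this difference between the populations was not tested. The GFP- mean of rapgef3 was 3.99 FPKM at 1 h against 5.42 FPKM in mock. That of bin2b was 10.6 FPKM at 1 h against 13.9 FPKM in mock. The GFP+ side of this contrast was used to choose both genes. Neither gene was called in GFP- cells at 1 h by limma. The share of all genes separated in this way was not counted, so nothing is read from the separation.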

How the results depend on the processing

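Of the members in GFP- cells, 0 were lower at 3 h and 1 was in a fit of the GFP- libraries only; 0 were higher at 5 h, and 1 was under median-of-ratios scaling and 2 under quantile scaling. From 1 h to 3 h 1 member was higher, and 2 were under quantile scaling, in the fit of GFP- libraries only and with the replicate block. With group medians in the rule, 128 of the 194 members remained. Leaving out 1 library gave 26 to 46 members higher at 1 h, 3 to 9 higher at 3 h, 0 to 1 higher at 5 h, 22 to 46 lower and 0 to 2 higher from 1 h to 3 h, and 0 to 0 lower at 1, 3 and 5 h. It left 174 to 227 genes meeting the rule and 143 to 193 of the members. Under median-of-ratios scaling 264 genes met the rule, with all 194 members among them. With the replicate block, 48 members were higher at 1 h, 39 of them among the 41, and 7 at 3 h. Same-numbered GFP- libraries, of mock against 1, 3 and 5 h and of 1 h against 3 h, correlated at -0.039 to 0.087. The numbers were therefore not taken as pairs among these GFP- groups. Every GFP- library correlated best with its own number between mock and 1 h only. GFP+ and GFP- libraries of the same number were not compared, and variation shared between the sorts was not tested. Of 1333 alternative values for 43 named results, 1231 stayed on their side of the threshold, 102 lost the call (96 with a library left out) and 0 changed sign. Genes named outside the naming rule were not among these results. Over all genes, 180 lower at 1 h became 115 with a pseudocount of 0.1, 95 under median-of-ratios and 353 under quantile scaling. At 3 h, 505 higher and 461 lower became 316 and 273 with 0.1. At 5 h, 105 higher became 61 with 0.1 and 264 under quantile scaling, and 123 lower became 72 with 0.1, 81 with a stricter filter and 79 with GFP- libraries only. The cause was not tested. True depth is unknown and was only estimated from FPKM values, and the number of libraries limits precision.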
